A study of Mus musculus with 2 samples.

Results

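The insulin and insulin-like growth factor (IGF) signalling genes described here are 10 named genes: the ligand Igf1, the receptors Insr and Igf1r, the docking proteins Irs1 and Irs2, and the IGF binding proteins Igfbp3, Igfbp4, Igfbp5, Igfbp6 and Igfbp7. They were matched by gene name and Ensembl identifier, and the list was chosen with earlier results of these data known. All 10 were found among 55536 annotated genes, 22028 of them protein-coding. Total RNA of mouse heart was sequenced in 2 libraries, and each gene has a level in TPM, a relative abundance per length of transcript, and an expected count, an estimate of its reads. Both libraries came from adult female 5xFAD/CAST mice aged 8 to 10 months, from a cross of 5xFAD with Cast. The 5xFAD parent, a model of Alzheimer's disease, carries mutant transgenes of human origin under the neuronal Thy1 promoter. CAST is an inbred strain derived from wild mice. The libraries form 1 group, in which replicates 1 and 2 have their own biosamples but share a donor identifier. An SD over n = 2 therefore measures only the spread between these libraries, which may be technical, and no control without the transgenes enters any value.

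Insulin and IGF1 bind related receptor tyrosine kinases, which phosphorylate insulin receptor substrate (IRS) proteins. These recruit phosphoinositide kinase, and the kinase Akt then moves the glucose carrier GLUT4 to the cell surface, holds FOXO factors out of the nucleus and feeds the growth kinase mTOR. In the heart the pathway controls glucose uptake and physiological growth, while IGF binding proteins in blood and matrix hold IGFs or release them.

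Several sequences mark the places where these genes can make more than 1 product, and their abundance follows further on. The insulin receptor gene has a 36-base exon at chr8:3181702-3181737 (GRCm38/mm10, minus strand), whose skipping gives the IR-A form and whose inclusion gives IR-B. The junctions, read 5′ to 3′ from the GENCODE transcripts Insr-203 and Insr-201, show the exon in capitals with 18 bases on either side.
Insr with the exon: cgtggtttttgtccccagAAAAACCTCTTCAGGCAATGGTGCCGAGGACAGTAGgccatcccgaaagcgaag
Insr without the exon: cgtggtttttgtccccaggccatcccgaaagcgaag
The length of 36 bases is a multiple of 3, so the reading frame continues on both sides.

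Igf1 has a 52-base exon at chr10:87915298-87915349 (mm10, plus strand) near the end of its coding part, which adds an alternative tail to the precursor, outside the mature hormone. The exon is in capitals, from Igf1-203 and Igf1-202.
Igf1 with the exon: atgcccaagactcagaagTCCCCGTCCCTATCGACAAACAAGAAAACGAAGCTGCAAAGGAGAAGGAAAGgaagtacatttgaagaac
Igf1 without the exon: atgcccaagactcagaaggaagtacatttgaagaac
Here 52 is not a multiple of 3, so the frame after the exon differs. Igf1 transcripts also begin with 1 of several leader exons. The first coding bases are shown for an upstream leader at chr10:87859350-87859412 (Igf1-202) and a downstream one at chr10:87861371-87861385 (Igf1-205), with the leader's coding part in capitals and the shared exon in lower case.
Upstream leader: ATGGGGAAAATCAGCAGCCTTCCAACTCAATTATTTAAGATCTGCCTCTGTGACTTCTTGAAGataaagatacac
Downstream leader: ATGACCGCACCTGCAataaagatacac
The upstream leader gives 63 coding bases and the downstream one 15 before the sequence they share.

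The total expected count was 45599940 in replicate 1 and 40801299 in replicate 2, of which the added ERCC spike-in RNAs made up 0.412% and 0.357%. Heart identity was checked with 5 cardiomyocyte genes, all detected, whose median was 3644 TPM. Vascular, fibroblast and macrophage markers were also detected throughout, so the levels below are those of a mixed tissue. The 4 pancreatic islet markers had 0 counts in both libraries. Summed liver markers stood at 0.805 and 2.49 TPM, and summed adipocyte markers at 19.6 and 30.6 TPM.

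All 10 members reached 1 TPM in both libraries, as did 49.0% of protein-coding genes. Because the members were chosen with earlier results known, neither this share nor the median below is a like comparison. Their mean levels ran from 3.15 to 47.2 TPM. By the mean of the alignment-based tables the insulin receptor stood highest and Igf1 lowest, with binding proteins in places 2 to 6 of the order and the docking proteins and Igf1r below them. The top place was not firm: Igfbp7 lay above Insr in replicate 2, and in the direct tables Igfbp7 (44.8 TPM) and Igfbp5 (38.5 TPM) both lay above Insr (38.3 TPM). Neighbours in the order did not overlap between libraries, with 3 exceptions: Insr with Igfbp7, Igfbp7 with Igfbp5, and Irs2 with Igf1. The median member stood at 14.6 TPM, beside 7.80 TPM for the 10784 protein-coding genes detected in both libraries.

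**Figure D1:**
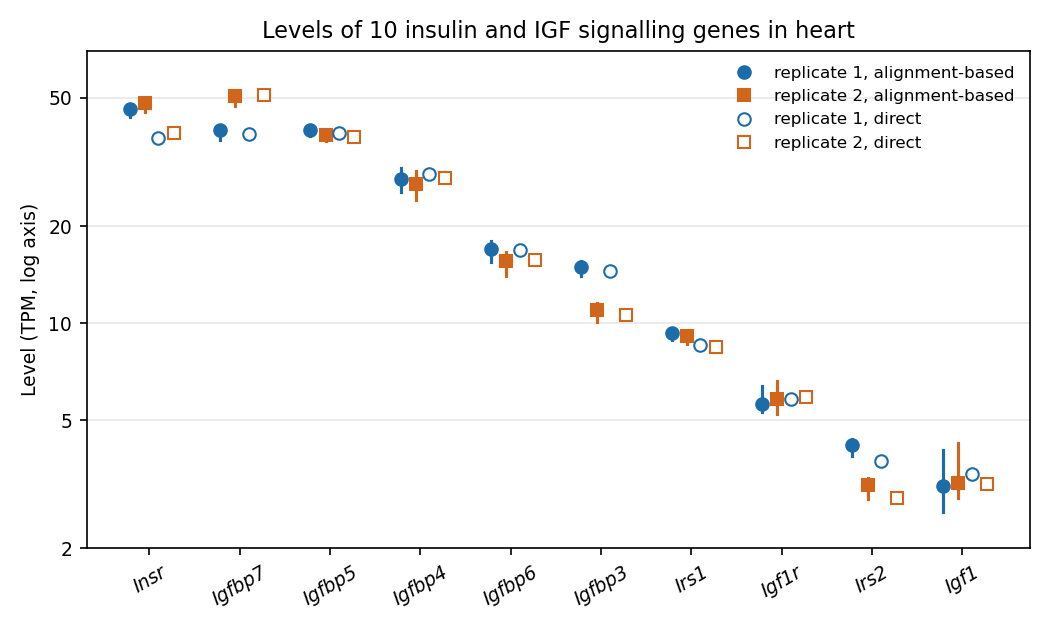
Level of each member in TPM on a log axis, ordered by mean, for replicate 1 (circles) and replicate 2 (squares). Filled symbols are the alignment-based tables with the deposited credibility bounds as lines, and open symbols are the direct tables. Levels fall from 47.2 TPM for Insr to 3.15 TPM for Igf1, and Insr is the member whose filled and open symbols stand furthest apart.

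Igf1, the growth factor that liver and many peripheral tissues make, lies at chr10:87858265-87937042 on mm10. Its level was 3.12 TPM in replicate 1 and 3.19 TPM in replicate 2 (3.15 ± 0.0485, SD, n = 2), from 386 and 406 expected counts. It ranked 8482 among the 22028 protein-coding genes, the lowest member by mean in either kind of table. The antisense gene Igf1os overlaps it and had 0 counts in both libraries.

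The other ligands and carriers were counted over a list of 7 genes, of which 2 were detected. Igf2, the second IGF, stood above Igf1 in both libraries, at 17.1 and 18.3 TPM (17.7 ± 0.789, n = 2). The Igf2 value is uncertain because Gm49394 overlaps it on the same strand and Igf2os on the other, although these had at most 4.93 and 4.00 counts. The insulin genes Ins1 and Ins2 had 0 counts in both libraries, which allows up to 3 counts in each. Igfals, the acid-labile subunit that stabilises circulating IGF complexes, stood at 4.16 and 2.94 TPM.

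Insr, the insulin receptor, lies at chr8:3122061-3279617. It was at 46.1 TPM in replicate 1 and 48.3 TPM in replicate 2 (47.2 ± 1.55, n = 2), from 11207 and 9835 expected counts, and ranked 1010. Igf1r, the IGF1 receptor at chr7:67952827-68233668, was at 5.59 and 5.80 TPM (5.70 ± 0.147, n = 2), from 2183 and 1908 counts, and ranked 6492. The libraries of the 2 receptors did not overlap.

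The ratio of Insr to Igf1r in TPM was 8.24 in replicate 1 and 8.33 in replicate 2 (8.29 ± 0.0574, n = 2). Its size depended on the table used. The direct tables put Insr at 37.6 and 39.0 TPM and Igf1r at 5.82 and 5.91 TPM, a ratio of 6.54 ± 0.0953. By either kind of table Insr was more than 6 times as abundant as Igf1r in each library.

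Of 4 other receptors, 2 were detected. Igf2r, the mannose 6-phosphate receptor that carries IGF2 to lysosomes, stood at 36.6 and 36.3 TPM, between Insr and Igf1r. Lrp1, an endocytic receptor of the LDL receptor family, stood at 20.7 and 18.8 TPM. Among the receptors described, Igf1r was thus the lowest that was detected.

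The receptor levels were next divided among annotated transcripts. Insr has 5, of which 3 held at least 5% of its TPM. Insr-201, the full-length coding transcript without the 36-base exon, held 61.9% in replicate 1 and 60.3% in replicate 2. Insr-203, a partial coding model of 672 bases with the exon, held 10.1% and 13.6%, from 104 and 125 counts. Insr-202, a retained intron transcript of 1675 bases, held 26.4% and 24.7%.

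Transcripts with the exon, Insr-203 and the retained intron transcript Insr-204, together held 11.6% of Insr TPM in replicate 1 and 15.0% in replicate 2 (13.3% ± 2.39, n = 2). Among coding transcripts alone the share was 14.0% in replicate 1 and 18.4% in replicate 2. The direct tables gave 16.3% and 18.9% of all Insr TPM. In each library and table Insr-201, which lacks the exon, held more than Insr-203 and Insr-204 together. The annotation has no full-length transcript with the exon, so reads outside the Insr-203 model cannot be assigned to the inclusion form. The share therefore holds for these annotated models only, and which receptor form was the larger cannot be read from it.

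Insr-202 was also where the tables differed. It stood at 12.2 and 11.9 TPM in the alignment-based tables and at 4.57 and 3.80 TPM in the direct ones. Insr-201 differed less, at 28.6 and 29.1 TPM against 26.9 and 27.8 TPM. The lower Insr level of the direct tables thus lay mainly in this retained intron transcript.

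Igf1r has 1 coding transcript, Igf1r-201, of 11409 bases, and 5 retained intron transcripts. Igf1r-201 held 86.3% and 85.8% of Igf1r TPM (86.1% ± 0.384, n = 2). In the direct tables its share was 75.1% and 78.4%. Igf1r-206, a retained intron transcript of 733 bases, was at 0 and 0.563 TPM in the alignment-based tables and at 0.853 and 1.04 TPM in the direct tables. The level of Igf1r-201 itself lay between 4.37 and 4.98 TPM across libraries and tables.

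**Figure D2:**
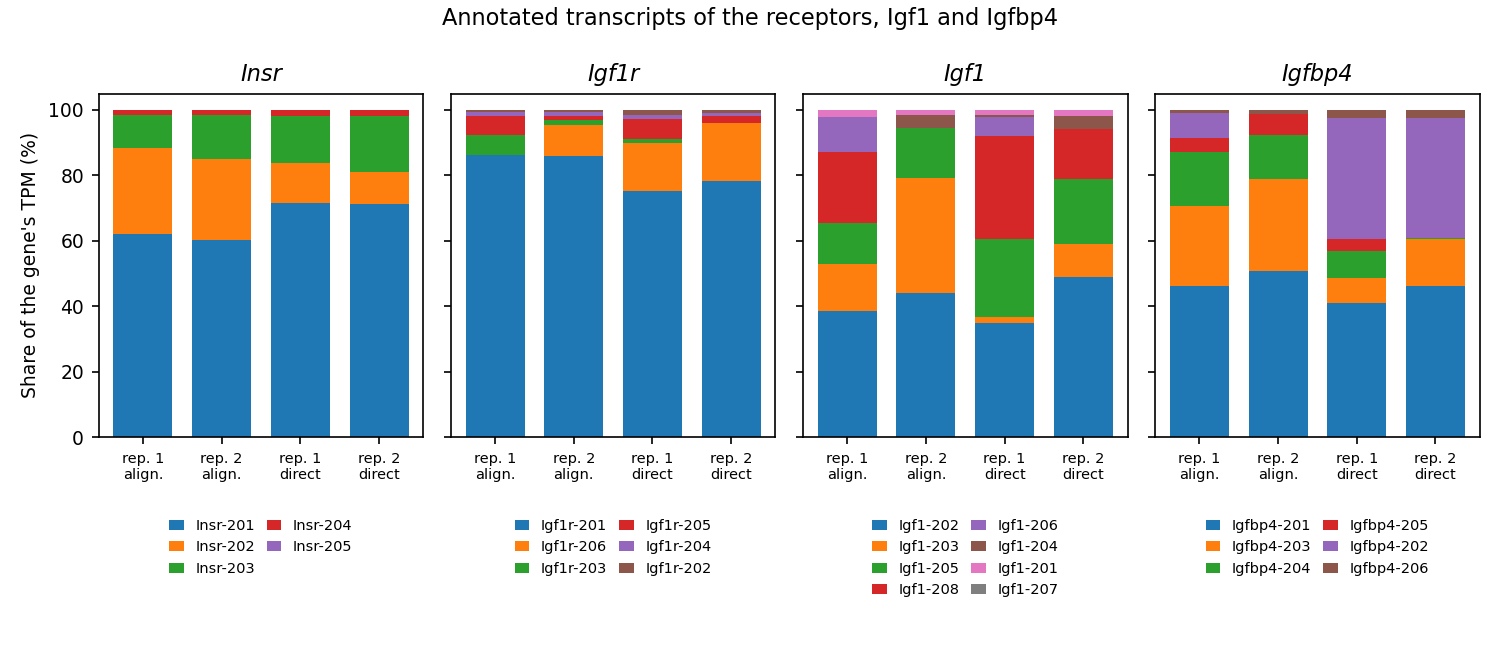
Stacked bars of the share of a gene's TPM, in percent, on each annotated transcript of Insr, Igf1r, Igf1 and Igfbp4, for replicates 1 and 2 in the alignment-based and the direct tables. Insr-201 and Igf1r-201 hold most of their genes in every bar, whereas the minor parts of Igf1 and Igfbp4 change between libraries or tables.

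All 8 annotated transcripts of Igf1 are coding. Igf1-202, with the upstream leader and without the 52-base exon, held most in both libraries, 38.7% and 44.2% (41.4% ± 3.86, n = 2). Transcripts with the 52-base exon held 48.7% in replicate 1 and 36.6% in replicate 2, and 40.6% and 27.6% in the direct tables. Transcripts with the upstream leader held 52.9% and 79.2%, and 36.8% and 58.9% in the direct tables.

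These Igf1 shares rest on few reads. Igf1-208, a downstream leader model of 510 bases, was at 0.674 TPM in replicate 1, with credibility bounds of 0 to 1.36 TPM, and at 0 in replicate 2, with bounds of 0 to 0.761 TPM. The bounds of this transcript overlap between libraries, but they do not cover leader use as a whole. The upstream share rests on Igf1-202 and Igf1-203, and no bounds were computed for the sum. That share was higher in replicate 2 in both kinds of table, and whether the difference exceeds counting error was not tested. The upstream leader held the larger part in replicate 2 in both tables, and in replicate 1 only in the alignment-based one.

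Irs1, a docking protein that links the receptors to phosphoinositide kinase, lies at chr1:82233101-82291416. It stood at 9.35 TPM in replicate 1 and 9.14 TPM in replicate 2 (9.24 ± 0.146, n = 2), from 3277 and 2759 counts. Irs2, its relative at chr8:10984681-11008458, stood at 4.19 and 3.14 TPM (3.66 ± 0.741, n = 2), from 1010 and 652 counts. Irs1 was above Irs2 in both libraries, by 2.23 times in replicate 1 and 2.91 times in replicate 2. Each has 1 annotated transcript, so no share among transcripts enters this ratio.

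In a list of 11 other docking proteins and adaptors, 8 were detected. Grb14, an adaptor that inhibits the insulin receptor kinase, stood at 64.2 and 73.2 TPM, above the receptor itself. Irs4, a further IRS protein named after its value was seen, had 0 counts in both libraries.

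The promoters of the members were read for 3 short motifs, because Irs2 is a known target of FOXO factors. RefSeq promoter sequences of GRCm38.p6 were matched for 9 of 10 members, without Insr. The motifs were CACGTG (the E-box, which is its own reverse complement), CAAAACA (the core of the insulin response element that FOXO factors bind) and TATAAA, on both strands of the 250 bases before each start. The window read for Igf1, chr10:87860861-87861160, lies between its upstream and downstream leaders, so the promoter of the upstream leader was not searched. Among the windows read, CACGTG and CAAAACA were found in those of Irs1 and Irs2 and of no other member. Of all 32851 promoters, 6.02% hold CACGTG, 5.56% hold CAAAACA and 0.295% hold both.

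In both promoters the motifs lie next to each other and in the same order, as these stretches show, with CACGTG and the reverse complement TGTTTTG in capitals. The Irs1 stretch is at chr1:82291532-82291566 and the Irs2 stretch at chr8:11008948-11008985, both on the minus strand.
Irs1 promoter: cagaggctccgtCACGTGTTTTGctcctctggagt
Irs2 promoter: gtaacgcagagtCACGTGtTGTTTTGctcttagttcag
In Irs1 the motifs overlap by 2 bases and CACGTG begins 115 bases before the RefSeq start. In Irs2 they are 1 base apart and CACGTG begins 44 bases before it. Of all promoters, 14 (0.0426%, Irs1 and Irs2 included) have both motifs overlapping or at most 10 bases apart, a distance chosen after the sequences were seen. Irs1 holds a further CAAAACA match. TATAAA was found in Igfbp4 and Igfbp6 and in 12.4% of all promoters. The matches are letters in a sequence and no binding was measured.

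Among the members, the IGF binding proteins had the highest summed level of any role. Igfbp3 to Igfbp7 summed to 139 TPM in replicate 1 and 143 TPM in replicate 2, which was 44.6 and 44.7 times the TPM of Igf1. By share of this sum, Igfbp7 held 32.0% ± 4.94, Igfbp5 27.7% ± 1.14, Igfbp4 19.5% ± 0.774, Igfbp6 11.6% ± 0.845 and Igfbp3 9.23% ± 2.18 (SD, n = 2).

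Igfbp7, a relative that binds IGFs weakly and is secreted by vascular cells, lies at chr5:77349240-77408041. It stood at 39.6 TPM in replicate 1 and 50.6 TPM in replicate 2 (45.1 ± 7.73, n = 2), from 1561 and 1714 counts. Its end overlaps Polr2b on the other strand, which had 1768 and 1720 counts, so its value is uncertain if strand was not used. Igfbp5, which binds to the matrix as well as to IGFs, lies at chr1:72857932-72874884. It stood at 39.6 and 38.3 TPM (39.0 ± 0.934, n = 2), from 9077 and 7551 counts. Igfbp7 and Igfbp5 were level in replicate 1, and only in replicate 2 did Igfbp7 lie above.

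Igfbp4, which mainly inhibits IGF action, lies at chr11:99041244-99054392 and stood at 27.9 and 27.1 TPM (27.5 ± 0.616, n = 2). Igfbp6, which prefers IGF2 over IGF1, lies at chr15:102144362-102149511 and stood at 16.9 and 15.6 TPM (16.3 ± 0.910, n = 2). Igfbp3, the main IGF carrier in serum, lies at chr11:7206086-7213923 and stood at 15.0 and 10.95 TPM (13.0 ± 2.85, n = 2). Igfbp3 was the lowest of the 5 binding protein members in both libraries.

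The family's remaining members had next to no reads. Igfbp1 lies 3539 bases from Igfbp3 and had 0 counts in both libraries. Igfbp2 lies 5457 bases from Igfbp5 and had 2 counts in replicate 1 and 1 in replicate 2. In each of these neighbouring pairs 1 gene was therefore among the members with ample reads and the other was near 0.

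Counting without length changed the order within the family, since the transcripts differ in length. Igfbp5-201 is 6006 bases long and Igfbp7-201 is 1116. By expected counts, Igfbp5 took 60.4% ± 0.886 of the family and Igfbp7 12.0% ± 2.17 (n = 2). The TPM order is therefore the one used for levels.

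Most binding proteins came from 1 transcript. Igfbp6-201 and Igfbp7-201 held 100% of their genes in all tables, and Igfbp3-201 held 94.8% and 98.3% of Igfbp3. Igfbp4 was divided more widely. Igfbp4-201, the full coding transcript, held 46.2% and 50.9% of Igfbp4 TPM, and processed transcripts without a coding frame held 33.1% and 29.0%. In the direct tables the latter held 47.1% and 53.7%.

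The tables disagreed on which processed transcript this was. Igfbp4-202 was at 2.11 and 0 TPM in the alignment-based tables and at 10.7 and 10.3 TPM in the direct tables, while Igfbp4-203 was at 6.85 and 7.54 against 2.18 and 4.08 TPM. The sum for the gene hardly moved, at 28.9 and 28.1 TPM in the direct tables. Of the 31-base words in Igfbp4 transcripts 5.79% occur in another gene, most often in Madd, beside at most 0.379% for the other members. Its transcript shares are uncertain.

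Among 8 proteases of binding proteins and their inhibitors, 5 were detected. Ctsd, the lysosomal protease cathepsin D, stood at 357 TPM in both libraries. Htra1, a secreted serine protease that cleaves IGF binding proteins, stood at 37.0 and 40.4 TPM. Pappa, the protease known for cleaving Igfbp4 and named after its value was seen, stood at 0.201 TPM in both libraries.

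The 2 libraries were then compared member by member. With 1 library against 1 there is no test. Ratios are of counts scaled by TMM, and intervals are 95% counting intervals, which cover counting error only. None of the 10 members was 2-fold apart between the libraries, beside 0.568% of the 12492 genes whose mean count reached 50. None was 1.5-fold apart (2.83% of those genes).

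At a difference of 25%, 2 members were apart, Igfbp3 and Irs2, both lower in replicate 2, beside 11.5% of all genes in either direction and 5.8% lower. On spike-in scaling neither reached this threshold, and Igfbp7 and Igf1 passed it instead, higher in replicate 2 (log2 ratios of 0.50 and 0.44), beside 27.2% of all genes. Igfbp3 went from 1327 to 844 counts, a scaled fold of 0.705 (0.646 to 0.770). Irs2 went from 1010 to 652 counts, a scaled fold of 0.716 (0.648 to 0.791). Both were lower in replicate 2 also in the direct tables (log2 ratios of -0.53 and -0.45) and when scaled to spike-ins (-0.28 and -0.26).

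Igfbp7 and Igf1 had the opposite sign. Igfbp7 was 1.22 times as high in replicate 2 (1.14 to 1.30) and Igf1 1.17 times (1.01 to 1.34). Both count ratios stayed above 1 in the direct tables and on spike-in scaling. For Igf1 the direct TPM had the opposite order, 3.41 in replicate 1 and 3.16 in replicate 2, so no direction is given for its level. The ratio of Igfbp7 to Igfbp3 in TPM accordingly went from 2.64 in replicate 1 to 4.62 in replicate 2. These members had the highest and the lowest scaled count ratio, so no other pair of members moved further apart.

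The other 6 members lay closer together. Insr was at 0.973 times (0.947 to 1.00), Igf1r at 0.969, Igfbp4 at 0.986, Irs1 at 0.934, Igfbp5 at 0.923 and Igfbp6 at 0.882. Spike-in scaling, which moved the median log2 ratio of all genes from -0.01 to 0.21, put these 6 above 1 instead. TPM ratios also ran slightly above the scaled counts, with a median log2 ratio over all genes of 0.06. Directions for these 6 are therefore not given.

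On TMM scaling the counting interval left out 1 for 7 of 10 members, beside 30.2% of all genes tested. The shares are not a like comparison, because intervals narrow as counts rise. The median level was 14.6 TPM for the members and 6.74 TPM for the genes tested. For Irs1, Igfbp5 and Igfbp6 the interval lay below 1, yet spike-in scaling put their ratios above 1. The interval holds no spread between animals. The median log2 ratio of the members was -0.07 and their median distance from 0 was 0.15, beside -0.01 and 0.11 for all genes.

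**Figure D3:**
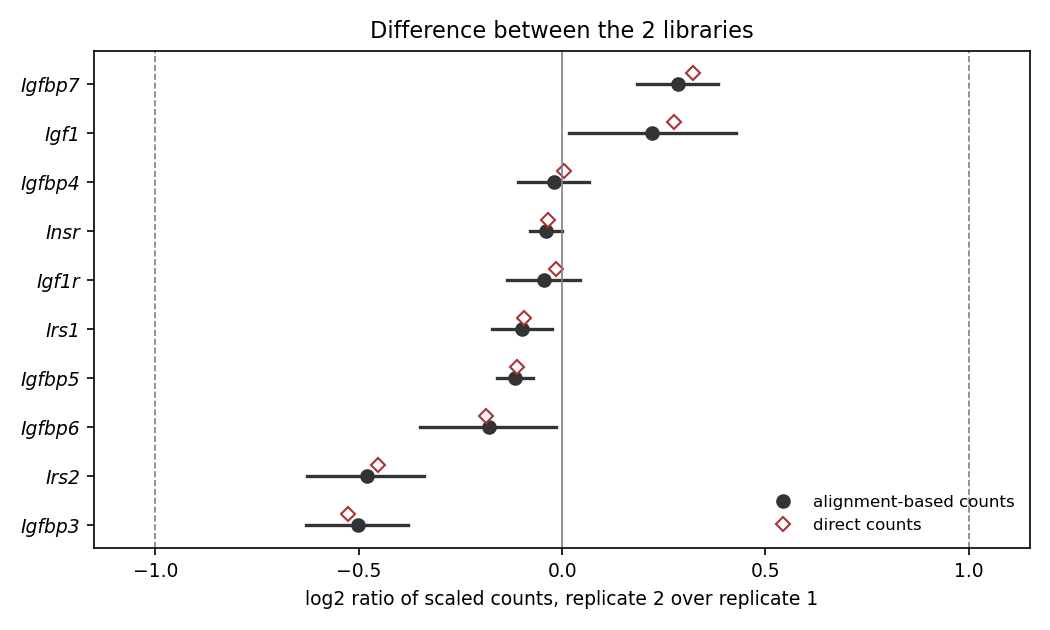
Log2 ratio of scaled counts, replicate 2 over replicate 1, for each member (filled circles, TMM scaling) with its 95% counting interval (lines) and for the direct tables (open diamonds). Dashed lines mark 2-fold. Igfbp3 and Irs2 lie lowest and Igfbp7 highest, and none reaches a dashed line. On spike-in scaling, which is not drawn, Insr, Igf1r, Irs1, Igfbp4, Igfbp5 and Igfbp6 move above 0.

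Markers of some cell types differed between the libraries beside Igfbp7 and Igfbp3. Summed pericyte and smooth muscle markers were at 201 and 229 TPM (7 of 7 detected), with log2 ratios of 0.90 for Acta2 and -0.07 for Abcc9. Summed fibroblast markers were at 155 and 187 TPM (6 of 6 detected), and summed endothelial markers at 158 and 152 TPM (6 of 6), in which Vwf had a log2 ratio of -0.40 and Pecam1 of 0.00. Summed macrophage markers were at 37.2 and 43.3 TPM (6 of 6). Of 38 listed markers whose mean count reached 50, 2 were 2-fold higher in replicate 2, beside 0.568% of all such genes either way. These were Adipoq of the adipocyte list (4 of 5 detected) and Cnn1 of the smooth muscle list, with log2 ratios of 1.14 and 1.05. Lep, the adipocyte marker not detected, went the other way, from 9 counts in replicate 1 to 3 in replicate 2. No marker of these lists was at 0 in either library. Their part in the members' differences was not tested, and in bulk RNA fewer cells of a type and less RNA per cell cannot be told apart.

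Downstream of the docking proteins, most listed genes were detected. Over all 74 listed genes, including those above, 59 were detected in both libraries, beside 49.0% of all protein-coding genes. In the phosphoinositide kinase list all 10 were detected. Akt2, the Akt form tied most closely to insulin's metabolic action, stood at 70.2 and 73.3 TPM, and Akt1, tied to growth, at 62.8 and 64.7 TPM. Both Akt genes stood above Insr.

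All 12 listed targets of Akt were detected. Slc2a4, which encodes the insulin-responsive glucose carrier GLUT4, stood at 162 and 163 TPM, and Tsc2, a brake on mTOR, at 39.7 and 35.1 TPM. Foxo3 stood at 30.2 and 24.3 TPM (27.3 ± 4.14, n = 2) and Foxo1 at 3.77 and 3.43 TPM (3.60 ± 0.243, n = 2). Of these 2 FOXO factors, which activate genes when insulin signalling is low, Foxo3 was the more abundant in both libraries.

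All 11 genes of the mTOR list were detected, led by Rps6, a ribosomal protein that S6 kinase phosphorylates, at 178 and 177 TPM. Next was Eif4ebp1, a translation repressor that mTOR inactivates, at 32.0 and 32.3 TPM. Of 11 negative regulators 9 were detected, led by the phosphoinositide phosphatase Inppl1, at 56.1 and 56.7 TPM, and the insulin-degrading enzyme Ide, at 17.6 and 19.2 TPM. None of the 63 listed genes with enough counts was 2-fold apart between the libraries, beside the same 0.568% of all genes.

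**Figure D4:**
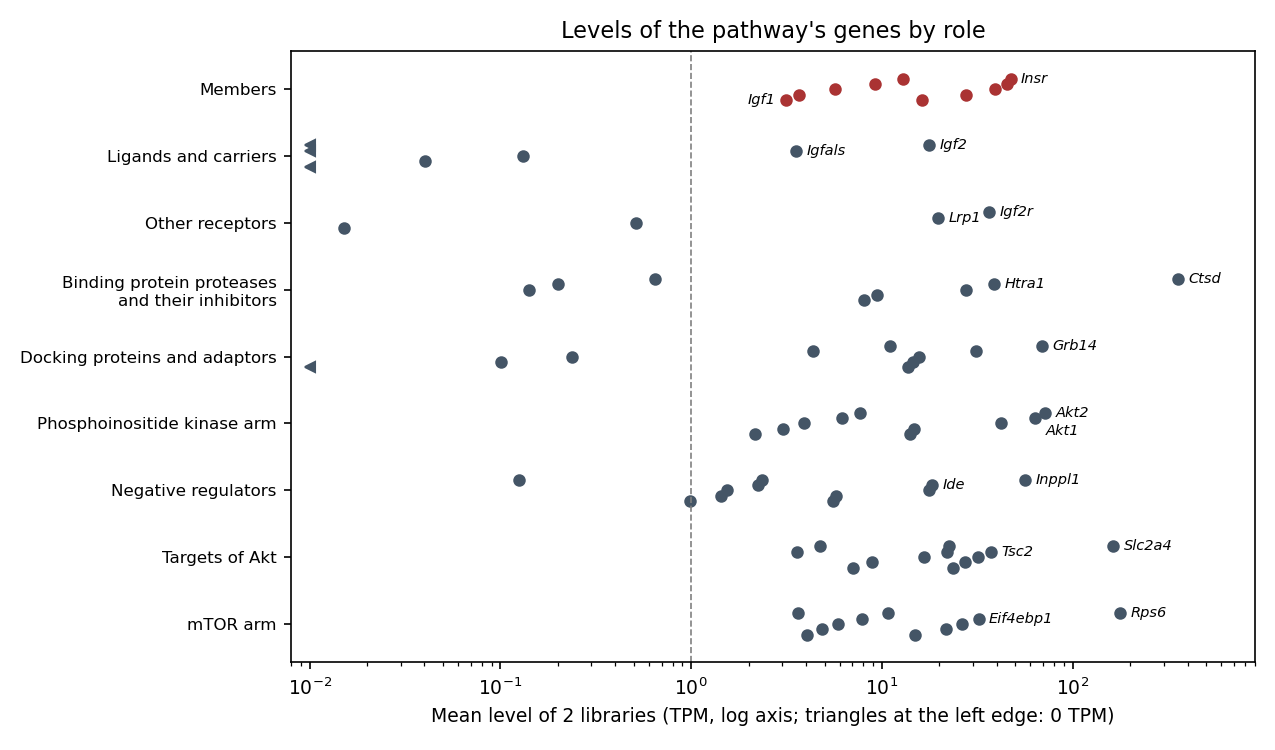
Mean level in TPM over 2 libraries, on a log axis, of the 10 members (top row) and of other pathway genes by role. Each point is a gene, the dashed line marks 1 TPM and triangles at the left edge are genes at 0 TPM. All members lie right of the line, and of the 7 ligands and carriers only Igf2 and Igfals do.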

How the data were processed

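The authors deposited 2 kinds of table per library on mm10 with GENCODE M21: alignment-based ones per gene and per transcript, and a direct one, listed as derived from the read files, per transcript. Per the file headers they hold expected counts and TPM values. The alignment-based ones add the authors' percent of gene TPM per transcript and credibility bounds of TPM, as deposited. The aligner, the quantifiers, their versions and the use of strand are not given in the sources used here. Per the labels, 300 ng of RNA and a directional kit were used.

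TPM was rescaled to endogenous genes, and shares were computed from it. The tables take different effective lengths, 1016 and 898 bases for Igfbp7-201 in replicate 1. Expected counts were rounded and scaled with TMM in edgeR 4.0.16 (R 4.3.3). Log2 ratios carried a prior count of 2. The TMM scaling, log2 ratios and counting intervals were checked on simulated counts, which held counting error only. Other steps used Python 3.11.15 and pandas 2.3.3. Alternatives were DESeq2 1.42.0 size factors, library size, spike-in totals, other thresholds, the direct tables and each library alone.

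A gene was detected at 1 TPM in both libraries. All members were described. Of each pathway list the 2 highest genes were named, with Igf2, Igf2r, Ins1, Ins2, Akt1, Akt2, Foxo1, Foxo3 and Slc2a4. Any gene 2-fold apart was named too. Transcripts holding at least 5% of a gene in either library are described only in part. Neither level nor share is given for some of them, among these Igf1-205, Igf1-206, Igf1r-203, Igf1r-205, Igfbp3-202, Igfbp4-204 and Igfbp4-205. Of the docking list 1 gene is counted but not reported here. The members and lists were chosen with earlier results of these data known. Protein sequences and the alleles of CAST were not analysed here.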

Additional observations from a re-analysis of the deposited data

How the results depend on the processing

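The ratio of Igf1r to Insr was 0.121 and became 0.153 in the direct tables and 0.194 from expected counts not divided by length. From such counts the ratio of Irs2 to Irs1 was 0.272, against 0.396, and the share of Igfbp7 among binding proteins 12.0%, against 32.0%, which follows from the lengths of the genes. The share of Insr TPM with the 36-base exon was 13.3%, 17.6% in the direct tables and 16.2% over coding transcripts only. That of Igf1r-201 was 86.1%, 76.8% in the direct tables and 100% over coding transcripts only, since it is the sole one. Of the members 0 were 2-fold apart under each scaling, prior and table tried, and 2 members, Igfbp3 and Irs2, were apart by 25%. The 25% threshold was also combined with spike-in totals, a combination chosen after seeing the data. There 2 members were again apart by 25%, but these were Igfbp7 and Igf1. The background share of 0.568% rose to 2.76% at a minimum mean count of 10 and to 4.42% with no minimum, since genes with few counts enter. Each library alone gave ranges of 0.120 to 0.121 for Igf1r to Insr, 0.343 to 0.448 for Irs2 to Irs1, 28.5% to 35.5% for Igfbp7, 11.6% to 15.0% for the Insr exon, 85.8% to 86.3% for Igf1r-201 and 38.7% to 44.2% for Igf1-202.

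At 5 TPM in place of 1 TPM, 8 members and 45 of the listed pathway genes were detected. TPM rescaled to nuclear protein-coding genes raised all 10 levels, Insr from 47.2 to 139 TPM and Igf1 from 3.15 to 9.30 TPM, by the removal of other RNA. The direct tables moved 5 member levels by more than 1 SD, and spike-in scaling moved all 10 log2 ratios beyond their counting intervals. DESeq2 size factors, library size, a prior count of 0.5 and the direct tables left all 10 within them. No paired analysis was possible because the libraries form 1 group.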
